A study of Mus musculus with 6 samples.

Results

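The genes described here are 10 non-collagen glycoproteins of cartilage: *Comp*, the matrilins *Matn1*, *Matn2*, *Matn3* and *Matn4*, *Cilp*, *Cilp2*, *Chad*, *Prg4* and *Ucma*. They were chosen by name, as secreted matrix proteins that chondrocytes make beside collagens and aggrecan, and all 10 were found among the 41388 genes of the count files. Their RNA was measured in chondrocytes from femoral head cartilage of male B6/129 mice aged 21 days, once the cells had spent 2 days in culture without treatment. There were 3 libraries from *Postn*-/- mice, which carry a global deletion of the periostin gene, and 3 from wild-type (*wt*) mice. The *Postn*-/- mice carried the homozygous Postn tm1Jmol allele and both genotypes were on the same mixed background, as far as the study's methods give it. The deletion is not confined to chondrocytes.

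These proteins bridge the collagen fibrils and the proteoglycan gel. COMP, a thrombospondin, and the matrilins form bundled oligomers that hold collagens II and IX together with other matrix molecules, and mutations in COMP and matrilin-3 cause skeletal dysplasias with early joint disease. Chondroadherin (*Chad*) binds collagen and a collagen-binding integrin, lubricin (*Prg4*) lubricates the joint surface, CILP and CILP-2 are found in the layers below it, and *Ucma* encodes a vitamin K-dependent protein of the upper growth plate.

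Libraries held between 20587640 and 26572260 counts. Levels are given below as normalized RPKM, the count scaled to the library's effective size by TMM and divided by the gene's exon length, so that they can be compared between libraries and between genes. The targeted gene *Postn* was at 0.595, 0.545 and 0.724 normalized RPKM in the *Postn*-/- libraries and at 1.29, 1.32 and 0.881 in the *wt* libraries, so each *Postn*-/- library lay below each *wt* library but reads remained (0.534 times the *wt* level, unadjusted p = 0.00362, adjusted p = 0.717 from edgeR). *wt* replicate 1 stood apart from the other libraries on the first principal component of all tested genes (47.7 against -17.4 to -0.0175), and the results of the members are given without it where it moved them. The 8 chondrocyte markers checked were present in every library, where they summed to between 6825 and 9077 normalized RPKM. The hemoglobin genes *Hba-a1* and *Hbb-bs* were at or below 0.105 normalized RPKM in every library, while the 8 blood and immune markers, these included, summed to between 12.2 and 33.97, most of it from *Cd68* and *Lyz2*. The 4 endothelial markers summed to at most 1.38. The 11 fibroblast and tendon markers summed to between 141 and 493, most of it from *Col1a1* and *Col1a2*. In such bulk samples, fewer cells that make a protein and less RNA for it per cell cannot be told apart.

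The sequences just upstream of 3 of the genes are shown because these genes stood at different places in the results: *Chad* was higher in *Postn*-/- by the unadjusted test, *Matn1* was abundant with 1 low *Postn*-/- library, and *Ucma* was highest in the *wt* library where *Chad* was lowest. RefSeq's GRCm38.p6 table held an entry for 7 of the 10 genes. Each line gives the 250 bases before the annotated start, 5′ to 3′ on the gene's own strand. Capitals mark the motifs searched on both strands: the TATA box TATAAA, the GC box GGGCGG and the SOX core ACAATG with its variant ACAAAG.
*Chad*, chr11:94564797-94565046, plus strand: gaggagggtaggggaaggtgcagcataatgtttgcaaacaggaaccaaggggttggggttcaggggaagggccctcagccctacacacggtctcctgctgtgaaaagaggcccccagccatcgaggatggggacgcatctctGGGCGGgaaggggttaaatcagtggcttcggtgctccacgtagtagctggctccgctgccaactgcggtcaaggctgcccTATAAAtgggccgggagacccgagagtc
*Matn1*, chr4:130944135-130944384, plus strand: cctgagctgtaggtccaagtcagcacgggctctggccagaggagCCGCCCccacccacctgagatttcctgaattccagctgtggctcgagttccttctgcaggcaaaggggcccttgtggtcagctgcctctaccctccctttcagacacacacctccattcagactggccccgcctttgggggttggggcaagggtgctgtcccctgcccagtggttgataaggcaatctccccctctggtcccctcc
*Ucma*, chr2:4975872-4976121, plus strand: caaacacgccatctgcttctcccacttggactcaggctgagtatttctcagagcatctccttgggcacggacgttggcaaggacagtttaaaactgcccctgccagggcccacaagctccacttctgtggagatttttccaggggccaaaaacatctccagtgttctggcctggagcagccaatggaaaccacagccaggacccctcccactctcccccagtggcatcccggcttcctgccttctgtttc
The *Chad* window holds 1 TATA box, from 28 to 23 bases before the start, and 1 GC box from 108 to 103 bases before it. Of all 32851 windows of this length in the table, 12.4% hold TATAAA and 32.7% hold GGGCGG. The *Matn1* window holds 1 GC box on the opposite strand, from 206 to 201 bases before the start, and that of *Ucma* holds none of the 4 motifs. The SOX core and its variant, present in 10.7% and 16.5% of all windows, were in none of the member windows searched, including those of *Matn3*, *Matn4*, *Cilp* and *Cilp2*. The windows of *Chad*, *Matn1* and *Ucma* are 60.4%, 62% and 56.4% G and C, against a median of 52.4% over all windows. These matches describe letters only and say nothing of binding.

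The level of the 10 genes spanned a wide range, from *Comp*, among the most abundant transcripts of these cells, to *Cilp2*, which was low but detected in every library. By mean normalized RPKM over the 6 libraries *Comp* ranked 11 of 14533 tested genes, *Matn1* 18, *Chad* 76, *Ucma* 224, *Matn3* 427 and *Prg4* 699. *Matn2* ranked 2025, *Cilp* 5526, *Matn4* 6136 and *Cilp2* 10702. Together the 10 genes took between 0.863% and 1.46% of a library's counts, and *Comp* alone between 0.335% and 0.760%. The order of the genes was nearly the same in every library. *Matn2* ranked 7 and *Cilp2* ranked 10 of the 10 in each one. Neighbours that changed places in at least 1 library were *Comp* and *Matn1*, *Chad* and *Ucma*, *Matn3* and *Prg4*, and *Cilp* and *Matn4*, and no test of these pairs was made. *Comp* was 1.34 to 3.83 times as high as *Matn1* in 5 libraries and 0.787 times as high in *wt* replicate 1. *Chad* was 1.81 to 4.04 times as high as *Ucma* in 5 libraries and 0.859 times as high in that same *wt* library.

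**Figure D1:**
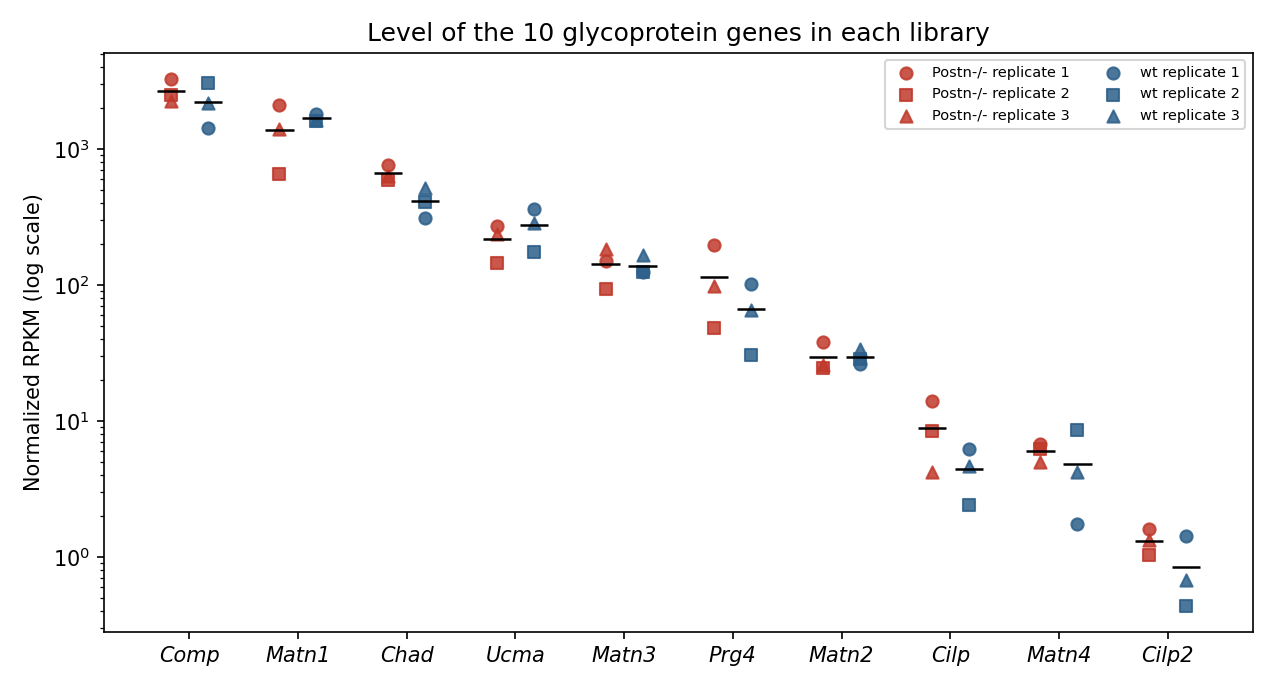
Normalized RPKM (log axis) of the 10 genes, ordered by their mean, in 3 *Postn*-/- (red) and 3 *wt* (blue) libraries; symbols mark replicates and bars the group means. *Comp* is highest and *Cilp2* lowest, and *Chad* is the gene whose red and blue points do not overlap.

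Whether the loss of periostin changed the RNA of these glycoproteins was tested with edgeR's quasi-likelihood test on all 14533 genes that passed the filter for low counts, which all 10 members did. *Chad* was higher in each *Postn*-/- library than in each *wt* library, by 1.60-fold, and was the 1 member of 10 that reached an unadjusted p limit of 0.05. Across all tested genes 6.3% reached this limit in either direction and 3.95% with a higher level in *Postn*-/-, so in this fit 1 of 10 is near the background. No member reached an adjusted p of 0.05, a limit reached by 2 genes in all (0.0138%). With voomWithQualityWeights and 2 surrogate variables, 6 members and 1997 of all genes reached the unadjusted limit. With the replicate number as a block in edgeR, 5 members and 1188 of all genes did. The number of members at the unadjusted limit was 3 without *wt* replicate 1, where 787 of all genes reached it. It was 2 without *Postn*-/- replicate 2, *Postn*-/- replicate 3 or *wt* replicate 2, where 1104, 425 and 1257 of all genes did. It was 1 without *Postn*-/- replicate 1 or *wt* replicate 3, where 868 and 878 of all genes did. *Chad* was among these members each time. Fold estimates for *Cilp*, *Prg4* and *Cilp2* were also above 1.5, but their genotypes overlapped. The log2 ratio of *Postn*-/- to *wt* (log2 fold change, with its standard error, SE) had a median of 0.29 over the members, against 0.0042 for all tested genes. This contrast rested on *wt* replicate 1, without which the median over the members was 0.002 and that over all tested genes 0.0064. Without *Postn*-/- replicate 1 the median over the members was 0.12, and without any of the other 4 libraries it was between 0.24 and 0.40. Estimates were above 0 for 8 members, against 50.8% of all tested genes, and below 0 for *Matn1* and *Ucma*. They were above 0 for 5 members without *wt* replicate 1, 6 without *wt* replicate 2 and 7 to 9 without any of the other libraries. Those of *Matn2* and *Matn3* lay so near 0 that the sign of *Matn2* turned with DESeq2's size factors. With upper quartile normalization the estimate of each member kept its sign.

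**Figure D2:**
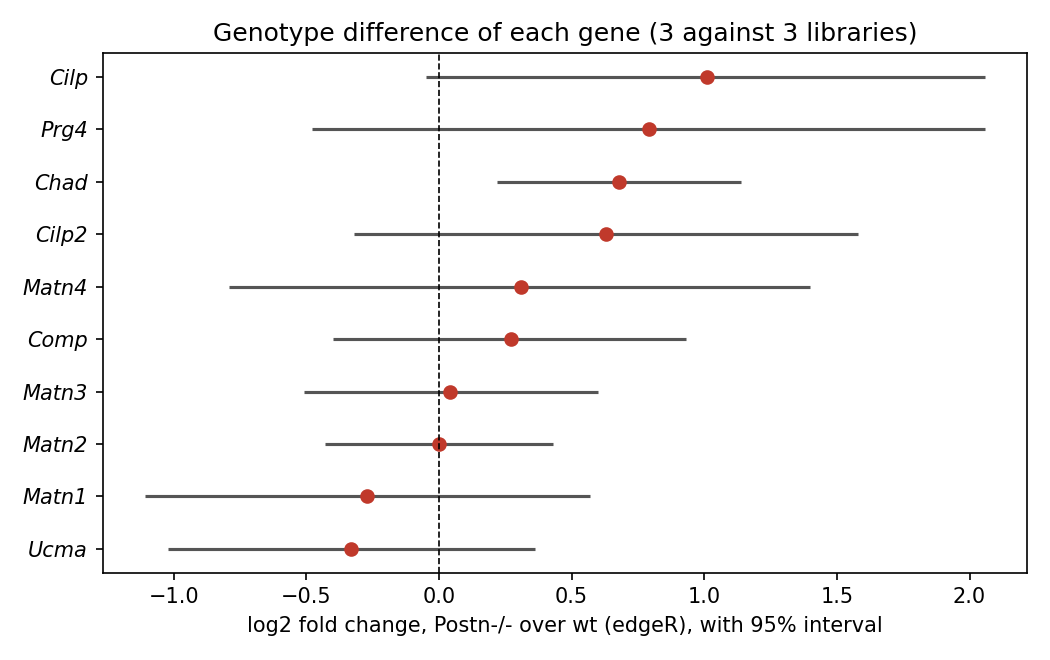
Estimated log2 ratio (*Postn*-/- over *wt*) of the 10 genes, points, with 95% intervals from edgeR's quasi-likelihood test as lines. The interval of *Chad*, from 0.22 to 1.14, is the 1 of the 10 that does not include 0.

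*Chad* encodes chondroadherin, a leucine-rich repeat protein that chondrocytes attach to (ENSMUSG00000039084, chr11:94565047-94569127, plus strand, GRCm38). The *Postn*-/- libraries held 31613, 24363 and 22380 reads of it, the *wt* libraries 13637, 15208 and 18056. Its level was 756, 589.8 and 634.8 normalized RPKM in *Postn*-/- replicates 1, 2 and 3, compared with 312, 409.6 and 515.0 in *wt* replicates 1, 2 and 3. The lowest *Postn*-/- library was thus above the highest *wt* library, which held for 7.03% of all tested genes with *Postn*-/- higher and for 13.6% in either direction. The group means were 660.3 ± 86.0 in *Postn*-/- against 412 ± 102 in *wt* (SD, n = 3 each). This amounted to a log2 ratio of 0.68 (SE 0.20, edgeR's adjusted p = 0.717, unadjusted p = 0.00908). The ratio ranged from 0.51 to 0.87 when each library was left out in turn, with an unadjusted p between 0.0035 and 0.0358 from the same test. Leaving out *wt* replicate 1, where *Chad* was lowest, gave 0.51 (unadjusted p = 0.0199 from edgeR). Over all 15 alternatives the adjusted p of *Chad* ran from 0.228 to 0.983. In *wt* replicate 1 the 7 proliferation markers checked summed to 161 normalized RPKM, against 77.7 and 88.1 in the other *wt* libraries and 59.0, 96.3 and 46.2 in *Postn*-/- replicates 1, 2 and 3, and their part in the *Chad* result was not tested.

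*Comp*, the thrombospondin of cartilage and tendon (ENSMUSG00000031849, chr8:70373548-70382065, plus strand), was the most abundant member. It was at 3245, 2492 and 2245 normalized RPKM in the *Postn*-/- libraries and at 1413, 3033 and 2190 in the *wt* libraries. *wt* replicates 1 and 3 lay below the *Postn*-/- libraries, and *wt* replicate 2 lay within their range. Its log2 ratio was 0.27 (SE 0.29, 95% interval -0.40 to 0.93, adjusted p = 0.822 from edgeR). It was 0.03 without *wt* replicate 1 and 0.56 without *wt* replicate 2 (unadjusted p = 0.0731 from edgeR in the latter). A difference of the size seen for *Chad* therefore lies within the interval for *Comp*. The ratio of *Chad* to *Matn1*, which needs no scaling between libraries, was 0.361, 0.906 and 0.450 in *Postn*-/- against 0.174, 0.257 and 0.316 in *wt*, and that of *Chad* to *Ucma* was 2.78, 4.04 and 2.68 in *Postn*-/- against 0.859, 2.33 and 1.81 in *wt*. Both ratios were higher in each *Postn*-/- library than in each *wt* library. They were picked after the values were seen and were not tested. *Chad* was the member whose genotypes did not overlap, and *Matn1* and *Ucma* were the members with negative estimates, so the choice favoured a separation. Ratios of *Chad* to the other members were not compared between genotypes, and these ratios add no support of their own.

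**Figure D3:**
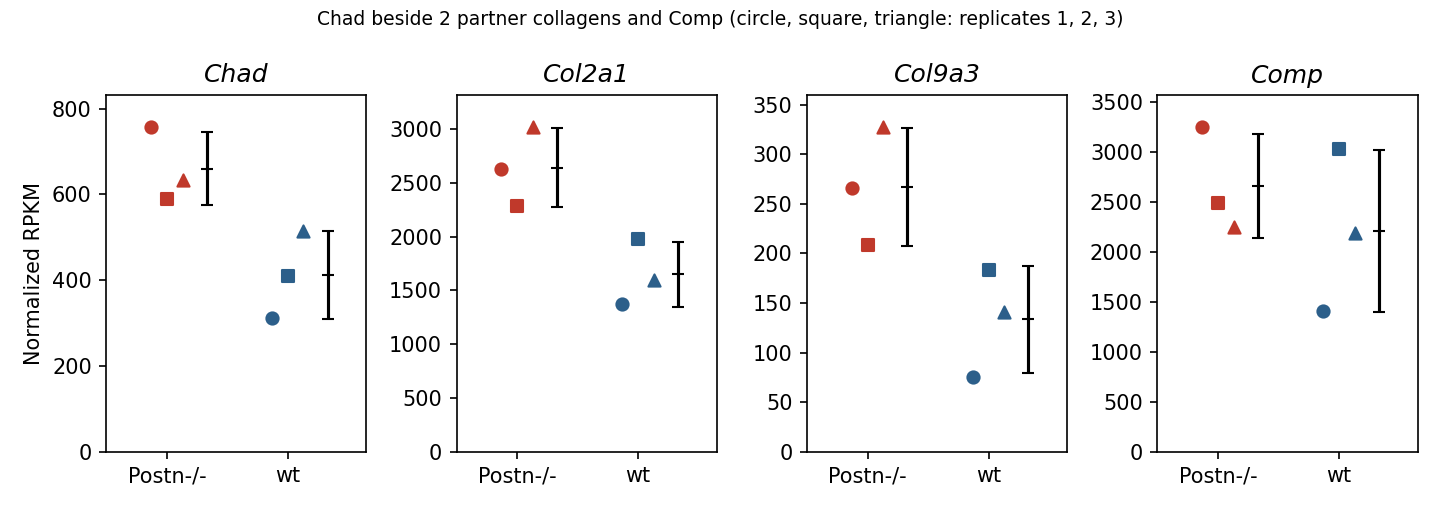
Normalized RPKM of *Chad*, the collagen genes *Col2a1* and *Col9a3*, and *Comp* in each library (circles, squares and triangles for replicates 1, 2 and 3), with the mean and SD of 3 libraries beside the points. The 2 genotypes are apart for the first 3 genes and overlap for *Comp*.

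The 4 matrilins are adaptor proteins built from von Willebrand factor A domains and joined into oligomers by a coiled coil, and matrilin-1 and matrilin-3 can share 1 oligomer. *Matn1* (ENSMUSG00000040533, chr4:130944385-130955475, plus strand), the matrilin of growth and non-articular cartilage, was at 2095, 651 and 1410 normalized RPKM in *Postn*-/- against 1796, 1595 and 1629 in *wt*. The *wt* libraries were close together, with a coefficient of variation of 6.44%. That of *Postn*-/- was 52.1%, with replicate 1 the highest and replicate 2 the lowest of all libraries. The log2 ratio of *Matn1* was -0.27 (SE 0.36, 95% interval -1.11 to 0.57), and without *Postn*-/- replicate 2 it was 0.07. *Matn3* (ENSMUSG00000020583, chr12:8947929-8972028, plus strand), a matrilin largely restricted to cartilage, was at 150.8, 93.8 and 183 in *Postn*-/- against 125.6, 124.7 and 165 in *wt*. The genotypes overlapped, and the log2 ratio was 0.04 (95% interval -0.51 to 0.60). *Matn1* RNA was 13.9, 6.94 and 7.70 times that of *Matn3* per length in *Postn*-/- against 14.3, 12.8 and 9.87 times in *wt*.

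*Matn2* (ENSMUSG00000022324, chr15:34306680-34436242, plus strand) and *Matn4* (ENSMUSG00000016995, chr2:164389393-164405160, minus strand) are matrilins with a wider distribution, also found in loose connective tissue and the nervous system. *Matn2* was the steadiest member, at 38.1, 24.6 and 25.7 normalized RPKM in *Postn*-/- against 26.2, 28.5 and 33.7 in *wt*. Its means were 29.5 ± 7.49 in *Postn*-/- against 29.4 ± 3.81 in *wt* (SD, n = 3 each), and the 95% interval of its log2 ratio, -0.43 to 0.43, was the narrowest of the 10. *Matn4* was far lower, at 6.79, 6.21 and 5.01 in *Postn*-/- against 1.76, 8.62 and 4.21 in *wt*. Both the lowest and the highest *Matn4* value belonged to *wt* libraries. The log2 ratio of *Matn4* was 0.31 (SE 0.47, adjusted p = 0.877 from edgeR), and it was -0.10 without *wt* replicate 1 and 1.01 without *wt* replicate 2 (unadjusted p = 0.0228 in the latter). Of the exon bases of *Matn4*, 149 overlap those of *Rbpjl* on the opposite strand, and reads there cannot be told apart without strand.

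*Cilp* (ENSMUSG00000042254, chr9:65265180-65280605, plus strand) encodes the cartilage intermediate layer protein, which opposes TGF-beta and IGF-1 signalling, and *Cilp2* (ENSMUSG00000044006, chr8:69880369-69887687, minus strand) its relative. *Cilp* had the largest fold estimate of the 10, but *Postn*-/- replicate 3 lay within the *wt* range. Its level was 14.0, 8.42 and 4.25 normalized RPKM in *Postn*-/- against 6.20, 2.40 and 4.69 in *wt*. *Cilp* had a log2 ratio of 1.01 (SE 0.46, edgeR's adjusted p = 0.717, unadjusted p = 0.0599). This was 0.51 without *Postn*-/- replicate 1, 1.34 without *Postn*-/- replicate 3 and 1.33 without *wt* replicate 1, with unadjusted p-values from edgeR of 0.267, 0.0113 and 0.033. *Cilp2* was counted with 172, 110 and 120 reads in *Postn*-/- and with 160, 42 and 61 reads in *wt*, so counting error is larger here than for the other members. In normalized RPKM it was at 1.60, 1.04 and 1.33 in *Postn*-/- against 1.43, 0.441 and 0.678 in *wt*. *wt* replicate 1 reached into the *Postn*-/- range. Its log2 ratio was 0.63 (SE 0.41, unadjusted p = 0.165), and without *wt* replicate 1 it was 1.24 (unadjusted p = 0.00468 from the same edgeR test, adjusted p = 0.833). Leaving out any of the other 5 libraries gave between 0.32, without *wt* replicate 2 (unadjusted p = 0.398), and 0.78.

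*Prg4* (ENSMUSG00000006014, chr1:150449412-150466165, minus strand) encodes lubricin, made by superficial chondrocytes and the synovial lining. It varied most of the 10 between libraries, by 6.41-fold, and its range on the log2 scale was wider than that of 99.1% of tested genes. It was at 195.8, 48.0 and 98.6 normalized RPKM in *Postn*-/- against 102.5, 30.6 and 65.2 in *wt*. The genotypes overlapped. Its log2 ratio was 0.79 (SE 0.55, 95% interval -0.48 to 2.06, adjusted p = 0.740 from edgeR), and it was 0.15 without *Postn*-/- replicate 1, 1.25 without *wt* replicate 1 and 1.15 without *Postn*-/- replicate 2, where the unadjusted p was 0.047. Of its exon bases, 204 overlap exons of *Tpr* on the opposite strand, and 3.97% of its 50-base words also occur in other transcripts, all of *Tpr*. The 10 hypertrophic and osteoblast markers checked summed to 6903 and 5100 normalized RPKM in *Postn*-/- replicate 2 and *wt* replicate 2, where *Prg4* was lowest in each genotype, and to between 2017 and 2723 in the other libraries. *Spp1*, encoding osteopontin, made up 5526 and 3186 of these sums. Of the 10 markers, 6 were highest in replicate 2 of both genotypes: *Spp1*, *Panx3*, *Ibsp*, *Sp7*, *Runx2* and *Alpl*. Their part in the *Prg4* values was not tested.

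*Ucma* (ENSMUSG00000026668, chr2:4976122-4985748, plus strand), which encodes a small Gla-rich protein of resting growth plate chondrocytes, was 1 of the 2 members with an estimate below 0. It was at 272, 146 and 236.6 normalized RPKM in *Postn*-/- against 363, 175.7 and 285 in *wt*. The genotypes overlapped, and *wt* replicate 1, the lowest library for *Chad* and *Comp*, was the highest for *Ucma*. Its log2 ratio was -0.33 (SE 0.30, 95% interval -1.02 to 0.36). It was -0.08 without *wt* replicate 1 and -0.57 without *wt* replicate 2 (unadjusted p = 0.0617 from edgeR in the latter). The carboxylase gene *Ggcx* and the vitamin K reductase gene *Vkorc1*, whose products Gla proteins need, were among 5 genes listed for this step, of which 0 reached the unadjusted limit in edgeR, in DESeq2 or with voomWithQualityWeights, and 1 did with surrogate variables added to the latter, without the filter, or without *Postn*-/- replicate 2. The most abundant of these was *Mgp*, encoding matrix Gla protein, at 4648, 1767 and 1749 normalized RPKM in *Postn*-/- against 3134, 4890 and 1548 in *wt*. *Bglap*, encoding osteocalcin, came next at 165, 154 and 244 against 241, 166 and 152. Both overlapped between genotypes.

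**Figure D4:**
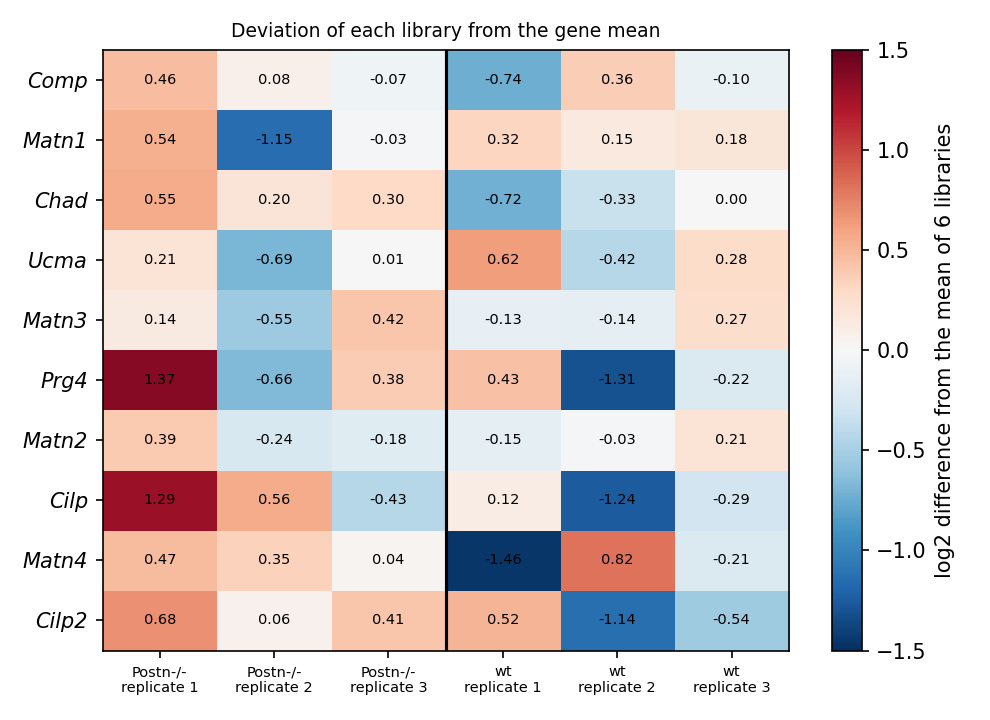
Each library's log2 difference from the mean of the 6 libraries for the 10 genes, red above and blue below the mean, with the value printed in each cell. *wt* replicate 1 is 1.46 below the mean for *Matn4*, 0.72 below for *Chad* and 0.62 above for *Ucma*, and *Postn*-/- replicate 1 is above the mean for each gene.

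The members did not vary together as a block. *Postn*-/- replicate 1 lay above the 6-library mean for all 10 genes, from 0.14 for *Matn3* to 1.37 for *Prg4* on the log2 scale. *Postn*-/- replicate 2 lay 1.15 below the mean for *Matn1* but 0.56 above it for *Cilp*. *wt* replicate 2 was lowest of all libraries for *Prg4*, *Cilp* and *Cilp2*, at -1.31, -1.24 and -1.14, while *Comp* and *Matn4* stood at 0.36 and 0.82 there. Compared with all tested genes, whose median range between libraries was 0.644 on the log2 scale, 9 of the 10 members had a wider range, the exception being *Matn2* at 0.63.

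The gene whose pattern was most like that of *Prg4*, the member with the widest range, was *Thbs4*. It encodes thrombospondin-4, a relative of COMP in tendon and other connective tissue. *Thbs4* was at 8.43, 2.12 and 3.58 normalized RPKM in *Postn*-/- against 4.27, 1.31 and 2.59 in *wt*, and its root mean square difference from *Prg4* in gene-centred log2 CPM over the 6 libraries was 0.0953. Both genes were highest in *Postn*-/- replicate 1 and lowest in *wt* replicate 2. The next nearest genes were *Mup5* (0.209), which belongs to a family of near-identical genes and is uncertain, and *Glt28d2* (0.268). *Thbs4* had a log2 ratio of 0.79 (SE 0.56, adjusted p = 0.740 from edgeR), which was 0.06 without *Postn*-/- replicate 1, 1.27 without *wt* replicate 1 and 0.46 without *wt* replicate 2.

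**Figure D5:**
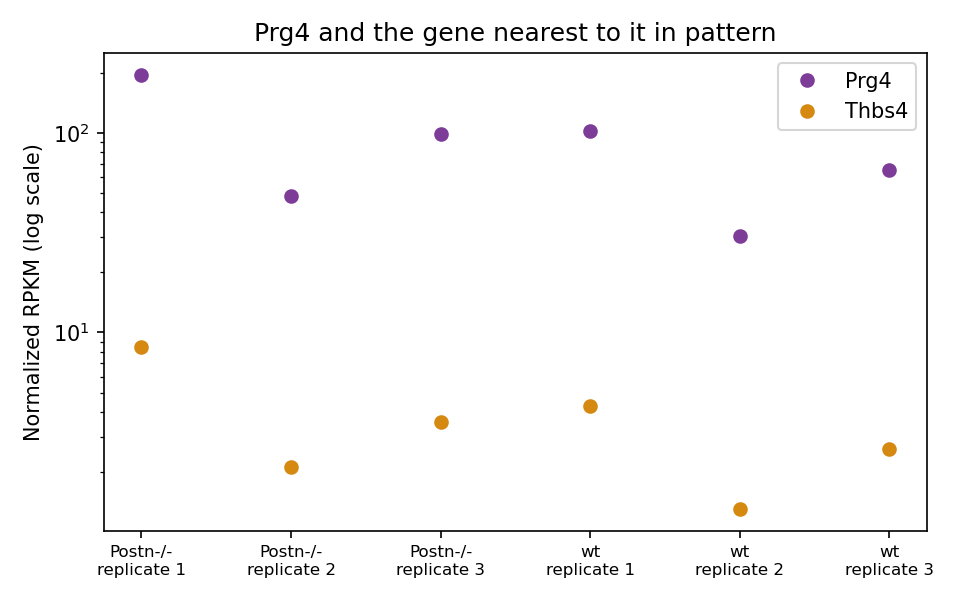
Normalized RPKM (log axis) of *Prg4* (purple) and *Thbs4* (orange) in each of the 6 libraries. Both are highest in *Postn*-/- replicate 1 and lowest in *wt* replicate 2.

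Among the collagens and proteoglycans that these glycoproteins bind, 3 of 12 genes reached the unadjusted limit in edgeR, all 3 with higher levels in *Postn*-/-, against 3.95% of all tested genes in that direction. These were *Col2a1*, the main fibrillar collagen of cartilage, *Col9a3*, a chain of collagen IX, and *Col11a2*, a chain of collagen XI. The list was chosen with earlier results of these data known, so its share is a description and no test of the list was made. *Col2a1* was at 2627, 2282 and 3013 normalized RPKM in *Postn*-/- against 1378, 1978 and 1594 in *wt*, a log2 ratio of 0.68 (SE 0.21, unadjusted p = 0.0125, adjusted p = 0.717). Its genotypes did not overlap, as for *Chad*. *Col9a3* was at 265.6, 208 and 327 in *Postn*-/- against 75.9, 183.6 and 141 in *wt*, a log2 ratio of 1.00 (SE 0.31, unadjusted p = 0.0128, adjusted p = 0.717). *Col11a2* was at 65.7, 57.2 and 67.3 in *Postn*-/- against 32.4, 59.3 and 41.0 in *wt*, so its genotypes overlapped. Its log2 ratio was 0.52 (SE 0.21, unadjusted p = 0.0406, adjusted p = 0.717 from edgeR). Without *wt* replicate 1, the lowest library for *Col2a1* and *Col9a3*, these ratios were 0.56, 0.72 and 0.34 (unadjusted p = 0.0422, 0.0138 and 0.0995 from edgeR). *Col9a3* stayed at the unadjusted limit with each library left out, *Col2a1* in all cases but without *wt* replicate 3 (0.0522), and *Col11a2* only without *Postn*-/- replicate 2 or *wt* replicate 2. The number of the 12 at this limit was thus 1 without *wt* replicate 3 and 2 to 4 otherwise. The median log2 ratio of the 12 was 0.22, and it ran from 0.12 without *Postn*-/- replicate 1 to 0.32 without *wt* replicate 2. Other chains of collagens IX and XI did not reach the limit. *Col9a1*, *Col9a2* and *Col11a1* had log2 ratios of 0.18, 0.55 and -0.14 (unadjusted p = 0.536, 0.0674 and 0.496 from edgeR), and their genotypes overlapped. *Col11a1* was at a mean of 522 normalized RPKM over the 6 libraries, against 53.8 for *Col11a2*. *Acan*, *Hapln1* and *Fn1* had estimates of 0.29, -0.03 and 0.03.

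Of 9 receptors for these proteins, *Tlr2*, a receptor that lubricin can bind, had a log2 ratio of 0.66 (SE 0.17, unadjusted p = 0.00545, adjusted p = 0.717 from edgeR) and was the 1 gene under the unadjusted limit. It was at 10.02, 6.83 and 8.13 normalized RPKM in *Postn*-/- against 5.65, 4.52 and 5.61 in *wt*. *Tlr2* is also an immune cell gene, and the 4 blood and immune markers tested had estimates above 0, with a median of 0.47, of which 0 were under the limit. The 8 markers of that list summed to 33.97, 17.8 and 25.5 normalized RPKM in *Postn*-/- against 19.5, 12.2 and 20.9 in *wt*, and their part in the *Tlr2* result was not tested. Of 9 proteases that can cut matrix glycoproteins, 8 were tested, and stromelysin-1 (*Mmp3*) was the 1 under this limit, with a log2 ratio of 1.46 (SE 0.45, unadjusted p = 0.0125, adjusted p = 0.717). *Mmp3* was at 65.4, 85.3 and 25.0 in *Postn*-/- against 14.7, 17.3 and 31.9 in *wt*, so *Postn*-/- replicate 3 lay within the *wt* range. Of 7 growth factors, *Igf1*, whose action CILP opposes, was the 1 under it and had a log2 ratio of 0.71 (SE 0.29, unadjusted p = 0.0402) at levels of 0.384 to 1.04. *Tlr2* and *Mmp3* stayed at the limit with each library left out, *Igf1* only without *Postn*-/- replicate 1 or *wt* replicate 3. With voomWithQualityWeights *Tlr2* was at the limit, but *Mmp3* and *Igf1* were not, at log2 ratios of 0.88 and 0.57 (unadjusted p = 0.104 and 0.0741). The receptor, protease and growth factor lists each held 1 gene at this limit in edgeR, with a higher level in *Postn*-/-. Of all tested genes 6.3% were at the limit and 3.95% in that direction. Lists of 7 to 9 are too short for 1 such gene to be told from this background. Of 7 thrombospondins and von Willebrand factor A relatives and of 6 transcription factors, 0 were under the limit in edgeR and in DESeq2. With voomWithQualityWeights 0 and 1 were, with surrogate variables 3 and 1, with upper quartile normalization 0 and 1, without the filter 1 and 0, and with each library left out 0 to 2 and 0 to 1. *Thbs1* and *Vit*, the most abundant of the former, had estimates of -0.47 and -0.16, and *Sox9* and *Sox6*, which drive chondrocyte genes, had estimates of 0.23 and -0.03.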

How the data were processed

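RNA was measured by RNA-seq in 3 *Postn*-/- and 3 *wt* chondrocyte libraries (SMARTer Ultra Low RNA kit, single-end reads). The authors aligned reads with STAR 2.0.4b to Ensembl release assemblies and used featureCounts 1.4.5 to count, for each gene, reads with 1 unambiguous alignment. The submitters' processing notes name the build mm9, but gene positions in the files equal those of GENCODE M21 on GRCm38 for 8 of the 10 members, and GRCm38 was used. The deposited counts are raw, and all levels given here were computed from them. The CPM and RPKM values deposited beside the counts were not used. Strand use in counting is not given in the sources used here.

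Genes above 1 CPM in at least 2 libraries were kept and 355 rRNA genes left out, which left 14533. edgeR 4.0.16 with TMM and the quasi-likelihood test compared genotypes without covariates, with Benjamini-Hochberg adjustment over all tested genes, in place of the methods' voomWithQualityWeights model with surrogate variables. A standard error was the size of the log2 fold change divided by the root of edgeR's F. The script was tested on simulated counts. The labels do not say that libraries came from separate animals, though the methods give 3 mice each, so p-values measure the spread between libraries. Chi-square per degree of freedom was between 26.5 and 81.3 for the 15 pairs of libraries, so none was a repeat. Total counts of 20587640 to 26572260 put 3 counts at 0.113 to 0.146 CPM, a floor that covers counting error only.

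Alternatives were DESeq2 1.42.0, voomWithQualityWeights of limma 3.58.1, alone or with 2 surrogate variables from sva 3.50.0, upper quartile normalization, DESeq2 size factors, other filters, a block for the replicate number, a robust fit, and each library left out. The members and lists were chosen with earlier results of these data known. All members and *Postn* were named, with the genes of each list that had an unadjusted p of at most 0.05, or otherwise the 2 most abundant, and the 3 genes nearest to the member with the widest range. *Col9a1*, *Col9a2*, *Col11a1*, *Acan*, *Hapln1*, *Fn1*, *Ggcx*, *Vkorc1* and marker genes beyond this rule were chosen after their values were seen. Promoter sequences came from RefSeq (GRCm38.p6).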

Additional observations from a re-analysis of the deposited data

How the results depend on the processing

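Under the 15 alternatives, 0 members reached an adjusted p of 0.05 in each, and the median log2 fold change of the members, 0.29 here, was 0.27 to 0.32 under the other tools, scalings and filters, 0.43 with the replicate number as a block and 0.002 (without *wt* replicate 1) to 0.40 with each library left out. The number of members with an unadjusted p of at most 0.05, 1 here, was 2 with DESeq2 and with voomWithQualityWeights, 6 with 2 surrogate variables, 3 without a filter and 1 to 3 with each library left out, highest without *wt* replicate 1. Over all genes, the number with an adjusted p of at most 0.05, 2 here, was 10 with DESeq2, 1 with voomWithQualityWeights, 4 with surrogate variables, 1 with upper quartile normalization, 9 without a filter, 0 with more than 1 CPM in all 6 libraries (806 at an unadjusted p of at most 0.05) and 1 to 2 with each library left out. The number of all genes at the unadjusted limit, 916 here, was 873 with DESeq2, 1337 with voomWithQualityWeights and 1997 with surrogate variables. It was 1797 without a filter, where more genes were tested, and 425 to 1257 with each library left out, lowest without *Postn*-/- replicate 3. Signs turned for the matrilins. The log2 fold change of *Matn2* was 0.0021 here, -0.0076 with DESeq2 or its size factors, -0.13 with voomWithQualityWeights, -0.05 with surrogate variables, -0.02 without a filter and -0.23 to 0.12 with each library left out. That of *Matn3* was -0.01 with voomWithQualityWeights and -0.18 to 0.27 with each library left out. The range with each library left out was -0.70 to 0.07 for *Matn1* and -0.10 to 1.01 for *Matn4*. The cause was not tested.

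The replicate numbers were not treated as pairs in the main fit, and the labels do not say whether same-numbered libraries belong together. The deviations of same-numbered libraries from their group means had correlations across genes of 0.0824, 0.155 and 0.143. The first is below 0.1, though each library correlated best with its own number. With the replicate number as a block, 1 gene had an adjusted p of at most 0.05 and 1188 an unadjusted one, among them 5 members. These were *Chad*, *Cilp*, *Cilp2*, *Prg4* and *Ucma*. The log2 fold change under the replicate block was 0.70 for *Chad*, 0.73 for *Prg4*, -0.32 for *Ucma* and -0.02 for *Matn2*, with an unadjusted p of 0.000811 for *Prg4* (0.190 without the block) and an adjusted p of 0.603. Depth limits *Cilp2* most, with 42 reads in its lowest library.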

Other observations

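Markers of other cells and of growth were measured beside the members. The 7 proliferation markers all had log2 fold changes below 0, with a median of -0.63, and *Ccnb1*, a mitotic cyclin, was the 1 with an unadjusted p of at most 0.05 (0.0467, log2 fold change -0.75, adjusted p = 0.717 from edgeR). In edgeR 6.3% of all tested genes were at this limit, and 1997 genes were with surrogate variables. The number of these markers at this limit was 3 with DESeq2, 7 with surrogate variables, 6 without the filter and 0 with upper quartile normalization, a robust fit or the stricter filter. *wt* replicate 1 was highest for *Ccnb1* (8.90 normalized RPKM, against 2.73 to 6.30 elsewhere), and without it the median was -0.30 and 0 markers were at the limit. There were also 0 without *Postn*-/- replicate 1, *Postn*-/- replicate 3 or *wt* replicate 3. Without *Postn*-/- replicate 2 the median was -1.1 and 6 markers were at the limit. Without *wt* replicate 2 the median was -0.82 and 3 markers were. Of the 6 muscle markers 3 were tested, and *Acta1*, skeletal muscle actin, was at 1.94, 3.15 and 3.09 normalized RPKM in *Postn*-/- and at 3.46, 11.1 and 5.68 in *wt* (log2 fold change -1.30, unadjusted p = 0.0152, adjusted p = 0.717 from edgeR). The log2 fold change was -1.11 without *Postn*-/- replicate 1 (unadjusted p = 0.0541) and -0.74 without *wt* replicate 2 (0.0533). *Myod1*, *Myog* and *Ckm* were below the filter. Of the 10 hypertrophic and osteoblast, 11 fibroblast and tendon, 8 blood and immune and 4 endothelial markers, 10, 9, 4 and 3 were tested, and 0 passed the unadjusted limit with edgeR, DESeq2 or voomWithQualityWeights. With surrogate variables 3, 1, 1 and 0 did, without the filter 2, 0, 1 and 0 did, and 2, 1, 1 and 0 did when *wt* replicate 1 was left out, and 0, 0, 1 and 0 when *wt* replicate 3 was. The most abundant of each were *Spp1* and *Col10a1*, *Col1a1* and *Col1a2*, *Cd68* and *Lyz2*, and *Pecam1* and *Kdr*. Of the 8 chondrocyte markers 4 had log2 fold changes above 0 and 4 below it, with a median of 0.07. *Col2a1* was the 1 at the unadjusted limit in edgeR. *Cnmd* was at 2546, 1922 and 2551 normalized RPKM in *Postn*-/- and at 2751, 2696 and 3137 in *wt* (log2 fold change -0.29, unadjusted p = 0.132 from edgeR). Its genotypes did not overlap, as for 13.6% of all tested genes.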
